A study of Mus musculus with 34 samples.

Results

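The genes described are 10 mouse enzymes and accessory proteins that turn arachidonic acid into prostaglandins and leukotrienes: Ptgs1, Ptgs2, Ptges, Ptgis, Ptgds, Alox5, Alox5ap, Lta4h, Ltc4s and Pla2g4a. They were taken by symbol from 2 tables of mRNA levels in the left ventricle (LV) of CFW mice, an outbred stock, and all 10 were found among the 14552 genes of the first table and among the 17406 genes of the second. For myocardial infarction (MI), a coronary artery of the LV (the LAD) was tied off for good. The first table holds 10 libraries from hearts that received no injection: 3 sham hearts (D, H and I), 3 hearts 4 h post-MI (C, D and E) and 4 hearts 24 h post-MI (C, D, G and H). The labels give the stress of these sham hearts as no operation, whereas the study's methods describe sham-operated mice.

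The second table holds 24 libraries. There were 2 sham-operated hearts labelled 4 h (1 and 2), and the other 22 hearts had MI and an injection of modified mRNA (modRNA) into the border zone right after ligation. The modRNA was either luciferase (Luc), an inert reporter, or one that the labels call AC without expanding the name. Hearts were collected at 4 h (4 Luc and 4 AC), 24 h (3 Luc and 3 AC, lettered A, C and D) and 48 h (Luc 1 to 4, and AC 1, 2, 4 and 5) post-MI. No age, sex or genotype is given, and the labels do not tie libraries to separate mice, so p-values measure the spread between libraries, which may be technical. In this table the format of the sample names changes with time, so a difference between times cannot be told apart from one between sets of libraries, and both sham hearts carry names of the 4 h set. Injected hearts without MI, and MI hearts given no injection at 48 h, were not analysed here.

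Prostaglandins and leukotrienes are short-lived lipid signals made on demand. Cytosolic phospholipase A2 (Pla2g4a) frees arachidonic acid from membranes, and the cyclooxygenases Ptgs1 (COX-1, mostly constitutive) and Ptgs2 (COX-2, inducible by injury and cytokines) turn it into prostaglandin H2, from which terminal synthases make prostaglandin E2 (Ptges), prostacyclin (Ptgis) and prostaglandin D2 (Ptgds). In the other branch, 5-lipoxygenase (Alox5) works with its activating protein (Alox5ap) to make leukotriene A4, which Lta4h converts to leukotriene B4, a neutrophil attractant, and Ltc4s to the cysteinyl leukotrienes. In infarcted heart these mediators are known for their part in inflammation, vessel tone and the recruitment of leukocytes.

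The genes lie on 6 chromosomes, in mm10 coordinates of the whole gene as the files give them. Ptgs1 (chr2:36230426-36252271, plus strand), Ptges (chr2:30889471-30903297, minus), Ptgis (chr2:167203196-167240537, minus) and Ptgds (chr2:25466712-25469749, minus) share chromosome 2, and Ptgs2 (chr1:150100031-150108234, plus) and Pla2g4a (chr1:149829619-149961290, minus) are neighbours on chromosome 1. Alox5 is at chr6:116410071-116461178 (minus), Alox5ap at chr5:149265004-149288153 (plus), Lta4h at chr10:93453396-93484896 (plus) and Ltc4s at chr11:50236461-50238532 (minus). In the RefSeq annotation of GRCm38.p6, genes that are in neither table overlap Ptges (Gm52550 and Gm13400), Ptgis (Gm52569) and Alox5 (Gm38880). Whether the reads were counted by strand is not given in the sources used here, so the levels of these 3 genes could include reads of those overlapping genes.

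Ptgs2 and Ptges are the inducible pair that makes prostaglandin E2, and a stretch of each promoter is shown because these 2 genes moved most among the cyclooxygenase-branch genes in the Luc hearts at 24 h. RefSeq promoters of GRCm38.p6 (250 bases before to 50 after the annotated start) were at hand for 8 of the 10 genes. Capitals mark TTGCGCAA, a palindrome bound by C/EBP factors, in the Ptgs2 stretch (chr1:150099951-150099980, plus strand), and a match to the Egr motif GCGNGGGNG in the Ptges stretch (chr2:30903318-30903347, minus strand).
Ptgs2: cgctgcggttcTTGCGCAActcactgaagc
Ptges: cggggagtggGCGGGGGTGaccgcctactc
The motifs were chosen after the sequences had been read, and both strands were searched. The palindrome was held by 0.183% of 32851 promoters in the RefSeq table and by Ptgs2 alone among these genes, where it started 69 bases before the annotated start. The Egr motif was held by 12.3% of all promoters and by Ptges alone among these genes. Outside the printed stretch, the 300 bases of the Ptgs2 promoter also held the core of a cAMP response element, CGTCA, present in 20.8% of all promoters, and an overlapping E-box, CACGTG, present in 7.15%. Both lay in the joined sequence CGTCACGTG, which began 14 bases into the transcript as annotated and was held by 0.451% of promoters. These matches describe letters only.

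Levels are given in CPM, the authors' read counts scaled to a common library size, and they are compared between groups for 1 gene, not between genes, because they are not divided by transcript length. Tests were limma fits on log2(CPM + 1) across every gene whose mean in a table reached 1 CPM, with Benjamini-Hochberg adjusted p-values over all genes tested and a threshold of 0.05. Fold changes are ratios of mean CPM, and log2 fold changes are on the log2(CPM + 1) scale with their standard error (SE), which understates changes of low genes. Of the 10 genes, 9 were tested in the first table, since Ltc4s fell short of the filter, and in the second all 10 were. From the size of the smallest values, the libraries of the first table held an estimated 12553519 to 18952669 reads on the listed genes, and the depth of the second is unknown.

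Genes that mark other cells moved with the groups. The summed level of 10 neutrophil genes was 2.90 to 4.16 CPM in sham, 14.4 to 47.6 CPM at 4 h and 431 to 2176 CPM at 24 h post-MI in uninjected hearts, and in the second table it was 5.87 to 24.7 CPM in sham and 288 to 1185 CPM in Luc hearts at 24 h. Most of the latter was Lcn2, at 227 to 1070 CPM, which other cells can also make. S100a8 was at 14.9 to 34.5 CPM in Luc hearts at 4 h and 8.89 to 15.6 CPM at 24 h, and between these times Lcn2 and Ngp were the 2 of 9 neutrophil genes tested that passed, both upward. The summed level of 6 ventricular cardiomyocyte genes was 32027 to 32531 CPM in sham and 12585 to 20562 CPM at 24 h post-MI in uninjected hearts, so the labelled tissue carried its defining markers in both groups. Myl7, which marks atrial myocytes, was at 17.0 to 61.3 CPM in the Luc and 9.05 to 112 CPM in the AC libraries at 24 h, at 1.49 to 20.6 CPM (Luc) and 8.84 to 24.8 CPM (AC) at 48 h, and at no more than 0.147 CPM in sham and 4 h libraries. In whole-tissue RNA, fewer cells of a type and less RNA per cell cannot be told apart, and the part of these markers in the results was not tested.

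**Figure D1:**
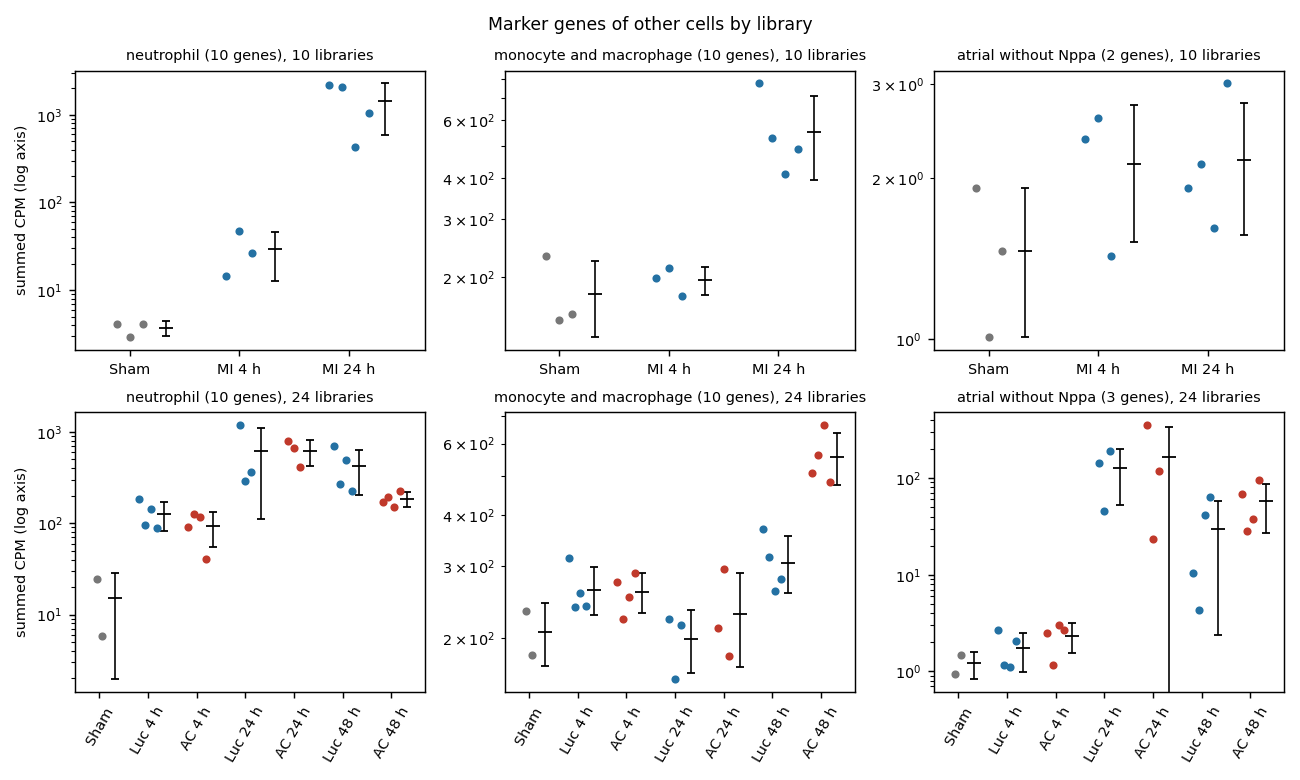
Summed CPM of marker genes in each library (log axis) for 3 lists, in the first table (upper row) and the second (lower row). Points are libraries, gray for sham, blue for MI without injection or with Luc and red for AC, and black bars are the mean and SD. Neutrophil genes were at 2.90 to 4.16 CPM in sham and 431 to 2176 CPM at 24 h post-MI in uninjected hearts, and the list of atrial genes without Nppa was at 23.5 to 353 CPM in the 24 h and 4.35 to 95 CPM in the 48 h libraries of the second table and at 0.945 to 3.02 CPM in its sham and 4 h libraries.

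To follow the pathway in the first hours of ischemia, hearts 4 h post-MI were compared to sham. Ptgs2 rose 14.2-fold, and it was the 1 gene of the 9 tested that passed, where 2.37% of all 12487 genes did (194 higher and 102 lower, or 167 and 175 with equal totals). It was at 0.651, 0.524 and 1.04 CPM in sham hearts D, H and I, and at 7.33, 9.57 and 14.5 CPM in hearts C, D and E at 4 h. The groups did not overlap, and the lowest MI heart was far above the highest sham heart. The log2 fold change was 2.68 ± 0.25 (SE), with an adjusted p of 0.00014. Few reads stood behind the sham values, an estimated 13 to 32 per library, and Ptgs2 reached the filter of 1 CPM through the MI hearts.

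The other 8 genes tested did not pass at 4 h. Pla2g4a was at 2.91 ± 0.34 CPM (SD, n = 3) in sham and 2.93 ± 0.48 CPM (n = 3) at 4 h, with a 95% confidence interval of the log2 fold change of -0.39 to 0.40. Alox5ap was at 4.49 ± 1.1 CPM in sham and 5.25 ± 0.65 CPM at 4 h, with an interval of -0.58 to 0.99. The interval ran from -0.08 to 1.0 for Ptgs1, and that of Ptgds was the widest of the 9 (-2.35 to 0.05). The median log2 fold change was 0.00 over the 9 genes and -0.03 over all genes tested.

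By 24 h post-MI, some genes of both branches differed from sham. Compared to sham, 5 of the 9 genes tested rose (Ptgs2, Ptges, Ptgis, Alox5ap and Pla2g4a) and Lta4h fell, where 66% of all genes passed, 35.6% upward and 30.3% downward, so that 6 of 9 is close to the share among all genes. The median log2 fold change was 1.32 over the 9 genes and 0.04 over all genes. Ptgs1, Ptgds and Alox5 did not pass. From 4 to 24 h, 7 of the 9 genes passed, the same 6 in the same directions and Alox5 upward, where 63.9% of all genes did.

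Pla2g4a, which supplies the substrate, was at 2.53, 3.19 and 3.02 CPM in sham hearts D, H and I and at 12.1, 7.16, 8.66 and 7.76 CPM in hearts C, D, G and H at 24 h. All 4 MI hearts were above all 3 sham hearts. The ratio of the means was 3.06 and the log2 fold change 1.32 ± 0.17 (adjusted p = 4.04e-05).

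Ptgs2 reached 41.3, 27.3, 22.0 and 32.2 CPM in the 4 hearts at 24 h, each above every 4 h heart. The mean was 41.6-fold that of sham (log2 fold change 4.17 ± 0.23, adjusted p = 2.03e-07), and from 4 to 24 h it rose a further 2.94-fold (1.48 ± 0.23, adjusted p = 0.000222). Ptgs1, the constitutive isoform, was at 2.39, 1.82 and 3.12 CPM in sham and 3.45, 3.5, 3.14 and 2.55 CPM at 24 h. These Ptgs1 values overlapped between the groups, and the interval of its log2 fold change ran from -0.22 to 0.79 (adjusted p = 0.292). Within each library the log2 ratio of Ptgs2 to Ptgs1 CPM averaged -1.75 ± 0.15 (SD, n = 3) in sham, 1.48 ± 1.2 (n = 3) at 4 h and 3.25 ± 0.43 (n = 4) at 24 h, a description without a test.

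Of the terminal synthases, Ptges was at 1.30, 1.94 and 0.877 CPM in sham, 1.09, 0.527 and 1.01 CPM at 4 h, and 6.75, 4.32, 3.58 and 6.39 CPM at 24 h. The 4 h hearts overlapped sham, and the 24 h hearts were all higher. Its log2 fold change was 1.39 ± 0.22 against sham (adjusted p = 0.000204) and 1.72 ± 0.22 against 4 h (adjusted p = 5.14e-05). Ptgis, which makes prostacyclin, a vasodilator that restrains platelets, was at 7.59, 7.58 and 6.95 CPM in sham and 31.9, 20.3, 24.2 and 29.3 CPM at 24 h. The groups stood clearly apart, at a ratio of means of 3.58 (1.69 ± 0.15, adjusted p = 2.7e-06). The log2 ratio of Ptges to Ptgis CPM was -2.50 ± 0.51 in sham, -3.42 ± 0.66 at 4 h and -2.36 ± 0.27 at 24 h.

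Ptgds varied most among the sham hearts, with 473, 159 and 72.5 CPM in D, H and I. The MI hearts at 56.7, 109 and 79.8 CPM (4 h) and 69.6, 154, 142 and 136 CPM (24 h) lay within or below that range. Its log2 fold change at 24 h was -0.55 ± 0.51 (adjusted p = 0.357), and without sham heart I, the lowest of the 3, it was -1.19 (adjusted p = 0.038).

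In the leukotriene branch, Alox5ap, which presents arachidonic acid to 5-lipoxygenase, was at 5.42, 4.80 and 3.25 CPM in sham, 5.42, 5.79 and 4.53 CPM at 4 h, and 72.0, 56.7, 21.6 and 31.9 CPM at 24 h. Sham and 4 h hearts overlapped, and all 24 h hearts were higher, hearts C and D most. It rose 10.1-fold against sham (2.96 ± 0.33, adjusted p = 1.68e-05) and 8.68-fold against 4 h (2.76 ± 0.33, adjusted p = 3.42e-05). The neutrophil sum differed among these 4 hearts as well, from 431 to 2176 CPM, and its part in the rise was not tested.

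Alox5 itself, the oxygenase, was at 6.22, 5.28 and 7.99 CPM in sham, 4.96, 4.98 and 4.76 CPM at 4 h, and 11, 11.7, 4.87 and 7.53 CPM at 24 h. Hearts C and D at 24 h were above all others, while G and H overlapped sham. Against sham it did not pass (0.33 ± 0.24, adjusted p = 0.233), but without heart G it did (0.56, adjusted p = 0.0131). From 4 to 24 h it rose (0.66 ± 0.24, adjusted p = 0.029), and this call was lost without any 1 of the 4 h hearts C, D and E or the 24 h hearts C and D (0.52 to 0.67, adjusted p from 0.0622 to 0.0749), or with median-ratio rescaling (0.58, adjusted p = 0.0711). The log2 ratio of Alox5ap to Alox5 CPM went from -0.54 ± 0.65 in sham to 2.30 ± 0.28 at 24 h.

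Lta4h moved the other way. It was at 18.3, 16.3 and 16.6 CPM in sham, 16.0, 15.7 and 15.5 CPM at 4 h, and 12, 10.3, 13.0 and 10.7 CPM at 24 h. The values at 4 h sat just under those of sham and the 24 h hearts were the lowest, with no overlap. It fell by 0.54 ± 0.10 on the log2 scale against sham (adjusted p = 0.000682), to 0.671 of the sham mean. Ltc4s was at 0.976, 1.17 and 1.40 CPM in sham and 1.05, 0.876, 0.967 and 0.533 CPM at 24 h, an estimated 14 to 43 reads in the 10 libraries, and fitted without the filter its log2 fold change was -0.24 (adjusted p = 0.15).

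**Figure D2:**
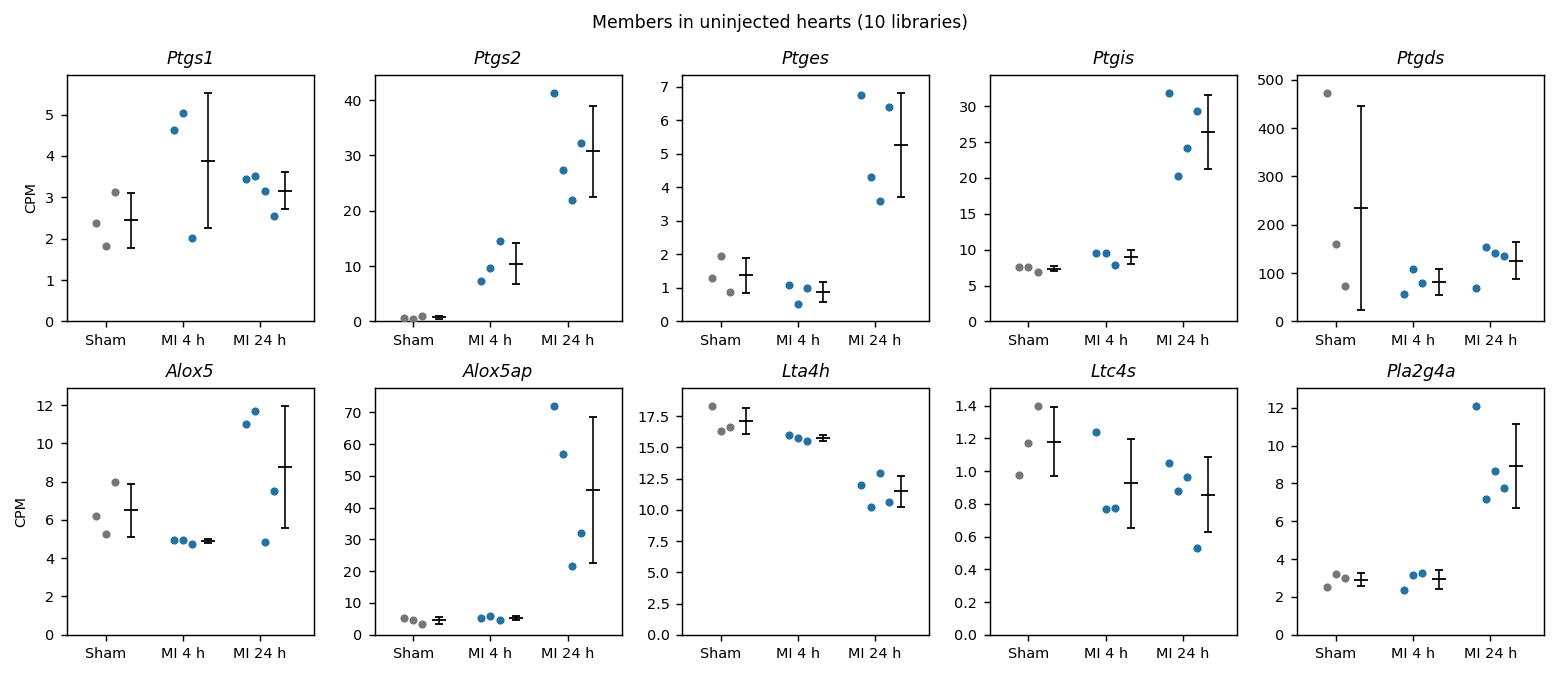
CPM of the 10 genes in the 10 libraries of uninjected hearts, with a separate vertical axis for each gene. Points are libraries, gray for sham and blue for MI, and black bars are the mean and SD. Ptgs2 is higher at 4 h and again at 24 h, Ptges, Ptgis, Alox5ap and Pla2g4a stand above sham at 24 h, and Lta4h is lowest at 24 h.

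The hearts injected with Luc modRNA were compared to the 2 sham hearts of the second table. At 4 h Ptgs2 alone of the 10 genes passed, where 1.55% of all 12555 genes did. It was at 0.358 and 0.413 CPM in sham hearts 1 and 2 and at 9.93, 8.91, 12.8 and 7.66 CPM in Luc hearts 1 to 4. Ptgs2 was under 1 CPM in sham and reached the filter through the MI hearts. The filter thus in part set the direction of its calls against this sham, at 24 and 48 h as well. Every Luc heart at 4 h was far above both sham hearts, at a ratio of means of 25.5. The log2 fold change was 2.94 ± 0.61 (adjusted p = 0.0106), and the call was lost without sham heart 1 (2.92, adjusted p = 0.179) or sham heart 2 (2.97, adjusted p = 0.0518), each of which leaves 1 sham library that is assumed to vary like the other groups.

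At 24 h the Luc hearts had higher Ptgs2, Ptges, Ptgis, Ptgds and Pla2g4a than sham. These 5 of 10 genes compare with 34.1% of all genes that passed, 25.3% upward, and the median log2 fold change was 0.56 over the 10 genes and 0.16 over all. Without sham heart 1 only Ptgs2 passed of the 10 genes. The scaling of the libraries bears on this comparison: equal totals moved the median over all genes by -0.27 and the split of all calls from 3172 higher and 1103 lower to 1836 higher and 2483 lower. Ptgs2 and Ptges passed under both rescalings that were tried, Ptgis under median ratios alone, and Ptgds and Pla2g4a under neither, while Lta4h passed downward under both.

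Ptgs2 was at 42.4, 10.1 and 6.27 CPM in Luc hearts A, C and D, so that heart A was several times the other two, which lay near the 4 h values. The log2 fold change against sham was 3.46 ± 0.64 (adjusted p = 0.000341), and 2.70 (adjusted p = 0.00231) without heart A. Ptges had the same order, with 15.4, 4.96 and 3.64 CPM in A, C and D and 1.37 and 1.71 CPM in sham. It rose 5.2-fold (1.60 ± 0.39, adjusted p = 0.00333) against sham, or by 1.05 on the log2 scale (adjusted p = 0.0207) without heart A, and without sham heart 1 it did not pass (1.5, adjusted p = 0.0523).

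Luc heart A also set the time course of Ptges. From 4 h, when Luc hearts 1 to 4 were at 2.10, 3.05, 2.40 and 2.91 CPM, to 24 h, Ptges was the 1 gene of 10 that passed (1.10 ± 0.33, adjusted p = 0.0134), where 32.3% of all genes did, and without heart A the value was 0.55 (adjusted p = 0.167). From 24 to 48 h it fell by 0.89 ± 0.33 (adjusted p = 0.0324), to 4.45, 2.69, 3.91 and 1.99 CPM, and without heart A by 0.34 (adjusted p = 0.351). Rescaled by median ratios, which moved the median over all genes by 0.22, the fall did not pass (-0.69, adjusted p = 0.113). This call was also lost without Luc heart 2 (-0.84, adjusted p = 0.0724) or Luc heart 4 (-0.73, adjusted p = 0.0937) of the 48 h group.

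Ptgds, the prostaglandin D2 synthase, was at 199 and 113 CPM in sham, 242, 265, 182 and 297 CPM in Luc hearts at 4 h, and 585, 304 and 465 CPM in Luc hearts A, C and D at 24 h. The 24 h hearts were above all sham and 4 h Luc hearts, though heart C was close to the highest 4 h heart. Its log2 fold change against sham was 1.53 ± 0.52 (adjusted p = 0.0271). The call did not hold without sham heart 1 (1.94, adjusted p = 0.0562), sham heart 2 (1.13, adjusted p = 0.199), Luc heart A (1.32, adjusted p = 0.0879) or Luc heart D (1.49, adjusted p = 0.0629), nor with equal totals (1.22, adjusted p = 0.0685). All 4 atrial marker genes (Myl7, Sln, Myl4 and Nppa) were higher than sham in the same hearts. In uninjected hearts at 24 h Nppa passed upward (3.35, adjusted p = 1.1e-05) and Ptgds did not pass. The other atrial markers listed for these hearts overlapped sham. Myl4 was at 1.53 to 2.55 CPM against 0.968 to 1.77 CPM in sham, and Sln at 0.0313 to 0.457 CPM against 0.0403 to 0.145 CPM. Myl7 is not listed for uninjected hearts. In Luc hearts at 48 h Myl7, Myl4 and Nppa passed upward, with Ptgds at 0.46 (adjusted p = 0.511). The part of the atrial markers in the Ptgds levels was not tested.

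Ptgis was at 7.59 and 8.44 CPM in sham, 14.2, 9.46 and 20.9 CPM in Luc hearts A, C and D at 24 h, and 19.9, 13.7, 20.5 and 17.4 CPM in Luc hearts 1 to 4 at 48 h. All hearts at 24 and 48 h were above sham, with heart C at 24 h closest to it. At 24 h the log2 fold change was 0.75 ± 0.25 (adjusted p = 0.0216), lost without sham heart 1 (0.68, adjusted p = 0.15), sham heart 2 (0.82, adjusted p = 0.0521) or Luc heart D (0.48, adjusted p = 0.132) and with equal totals (0.46, adjusted p = 0.0831). At 48 h it was 1.05 ± 0.23 (adjusted p = 0.00183), which held in every alternative run.

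At 48 h, 4 genes rose against sham (Ptgs2, Ptgis, Alox5ap and Pla2g4a) and Lta4h fell, 5 of 10 where 30.1% of all genes passed, 13.7% upward and 16.4% downward. With equal totals the split of all calls went from 1714 higher and 2060 lower to 2502 and 1286, and the same 5 genes passed. The medians were 0.59 over the 10 genes and -0.03 over all. Ptgs2 was at 6.72, 5.23, 13.0 and 5.23 CPM, still above both sham hearts (2.54 ± 0.61, adjusted p = 0.00347). The difference between Luc hearts at 48 and 24 h in Ptgs2 did not pass (-0.92 ± 0.54, adjusted p = 0.174).

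Alox5ap in sham hearts was at 7.20 and 5.74 CPM. It was at 12, 9.97 and 10.1 CPM in Luc hearts A, C and D at 24 h, and at 39.6, 21.6, 26.5 and 17.4 CPM in Luc hearts 1 to 4 at 48 h. The 48 h hearts were above all earlier ones. At 24 h it did not pass against sham (0.65 ± 0.27, adjusted p = 0.0672), at 48 h it was 4.06-fold higher than sham (1.81 ± 0.26, adjusted p = 2.75e-05), and from 24 to 48 h it rose by 1.16 ± 0.23 on the log2 scale (adjusted p = 0.000461). Over those 2 times 3 of 10 genes passed, Alox5ap and Pla2g4a upward and Ptges downward, where 41.9% of all genes did. Alox5, its partner, was at 8.47 and 7.55 CPM in sham and 7.15, 6.16, 7.06 and 6.19 CPM at 48 h, and did not pass (-0.24 ± 0.18, adjusted p = 0.344).

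Pla2g4a climbed in small steps, of which that from 24 to 48 h passed and those from sham to 4 h and from 4 to 24 h did not. It was at 2.51 and 2.13 CPM in sham, 2.87, 2.70, 3.05 and 3.09 CPM in Luc hearts at 4 h, 3.5, 4.02 and 3.33 CPM at 24 h and 5.40, 6.16, 3.95 and 6.58 CPM at 48 h. Neighbouring groups did not overlap except at 24 and 48 h, where Luc heart 3 lay below Luc heart C. Against sham the log2 fold change was 0.48 ± 0.18 at 24 h (adjusted p = 0.0497, past the threshold in 7 of 34 alternatives) and 0.96 ± 0.18 at 48 h (adjusted p = 0.000349, past it in all). From 24 to 48 h it rose by 0.48 ± 0.15 (adjusted p = 0.0156), lost without Luc heart D at 24 h (0.44, adjusted p = 0.0664) or Luc heart 4 at 48 h (0.40, adjusted p = 0.0508).

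Lta4h was at 21.9 and 20.0 CPM in sham and at 22.7, 19.8, 19.6 and 20.1 CPM in Luc hearts at 4 h, and it was lower at 24 h with 11.9, 15.3 and 19.6 CPM and at 48 h with 10.4, 12.8, 8.99 and 14.5 CPM. Sham and 4 h hearts overlapped, heart D at 24 h reached their lower edge, and the 48 h hearts were below all of these. Against sham it fell by 0.43 ± 0.19 at 24 h, which did not pass (adjusted p = 0.0833) but did without Luc heart D (-0.60, adjusted p = 0.025) or rescaled by median ratios (-0.62, adjusted p = 0.00966), and by 0.81 ± 0.18 at 48 h (adjusted p = 0.00192). Ptgs1 and Ltc4s did not pass in any of the comparisons of Luc hearts with sham, and their intervals at 48 h were -0.58 to 0.59 and -0.21 to 0.76.

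**Figure D3:**
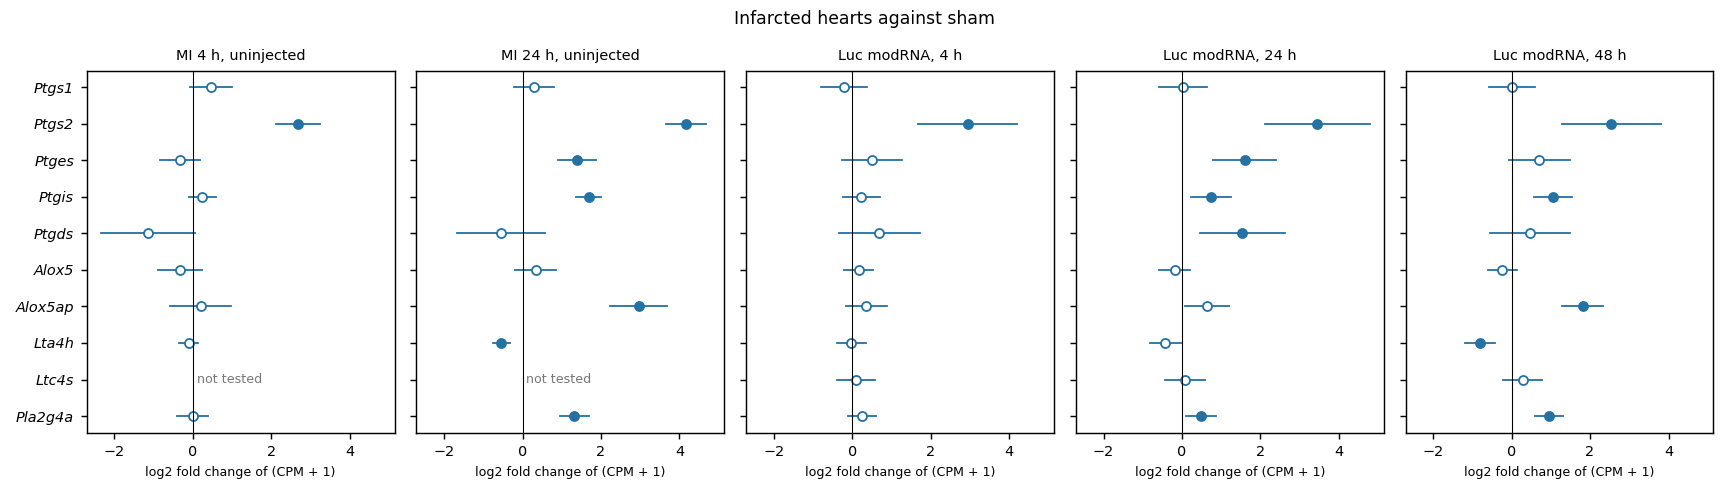
Log2 fold changes of (CPM + 1) against the sham hearts of the same table, for uninjected MI hearts (first 2 panels) and Luc hearts (last 3 panels). Circles are the estimates, filled where the adjusted p is under 0.05, and lines are 95% confidence intervals from limma. Ptgs2 is filled in all 5 panels, at 2.68, 4.17, 2.94, 3.46 and 2.54, and Alox5ap is filled at 2.96 (uninjected, 24 h) and 1.81 (Luc, 48 h).

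The tables were normalized separately and the difference between injected and uninjected hearts was not tested. Side by side at 24 h, the log2 fold change against the table's own sham was 2.96 ± 0.33 (uninjected) and 0.65 ± 0.27 (Luc) for Alox5ap, 1.32 ± 0.17 and 0.48 ± 0.18 for Pla2g4a, and 1.39 ± 0.22 and 1.60 ± 0.39 for Ptges. Injection and library set both differ between these tables and cannot be told apart. At 24 h, the sum of 6 ventricular cardiomyocyte genes was below sham in uninjected MI hearts (12585 to 20562 against 32027 to 32531 CPM). In Luc hearts it was above sham (43900 to 57210 against 34811 to 35478 CPM). The sum of 10 monocyte and macrophage genes was 412 to 774 CPM in uninjected MI hearts (sham 148 to 232) and 159 to 223 CPM in Luc hearts (sham 182 to 233). The part of these markers was not tested.

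To see whether AC modRNA changed the pathway, AC hearts were compared to Luc hearts at each time. At 4 h none of the 10 genes passed, where 0.00796% of all genes did (1 gene, and 131 at an unadjusted p under 0.05). Ptgs2 was at 7.09, 39.6, 11.2 and 9.40 CPM in AC hearts 1 to 4, against 7.66 to 12.8 CPM in Luc hearts. AC heart 2 stood apart and the other 3 overlapped the Luc hearts. The log2 difference was 0.42 ± 0.50 (interval -0.61 to 1.45), and -0.08 without AC heart 2.

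Ptges was at 1.93, 1.72, 0.983 and 1.25 CPM in the AC hearts at 4 h, all below the Luc hearts at 2.10 to 3.05 CPM. The difference of -0.56 ± 0.30 did not pass after adjustment over all genes (adjusted p = 1, unadjusted p = 0.079). For Pla2g4a the interval at 4 h was -0.37 to 0.22 and for Alox5ap -0.52 to 0.35.

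At 24 h again none of the 10 genes passed, where 0.00796% of all genes did (1 gene, and 599 at an unadjusted p under 0.05). AC hearts A, C and D were at 28.8, 5.46 and 7.98 CPM for Ptgs2 and at 8.28, 2.48 and 4.30 CPM for Ptges. In both groups the heart lettered A was highest in both genes, and the groups overlapped. The intervals of the log2 difference were wide for Ptgs2 (-1.53 to 0.85) and Ptges (-1.19 to 0.25) and narrower for Pla2g4a (-0.39 to 0.29) and Lta4h (-0.37 to 0.33). Without Luc heart A the estimates for Ptgs2 and Ptges were 0.42 and 0.08, and without AC heart A they were -1.0 and -0.84. Ptgds was at 352, 784 and 503 CPM in the AC hearts, in the range of the Luc hearts and above it.

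At 48 h, 2 of the 10 genes were higher with AC, Pla2g4a and Lta4h, where 15.3% of all genes passed in either direction and 12.1% upward. Median-ratio rescaling moved the split of all calls from 1516 higher and 410 lower to 823 and 802, and Pla2g4a and Lta4h still passed, with Alox5 then lower (-0.43, adjusted p = 0.0388). The median log2 difference was 0.05 over the 10 genes and 0.14 over all genes. Pla2g4a was at 11, 13.1, 13.2 and 12.6 CPM in AC hearts 1, 2, 4 and 5, against 5.40, 6.16, 3.95 and 6.58 CPM in Luc hearts 1 to 4. The AC hearts were close together and all were above every Luc heart. The ratio of means was 2.26 and the log2 difference 1.06 ± 0.14 (adjusted p = 7.4e-05), and it passed in all 35 alternatives, from 0.74 to 1.18.

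The AC effect on Pla2g4a differed between times. It was larger at 48 h than at 4 h by 1.14 ± 0.20 (adjusted p = 0.00652), where 3.35% of all genes passed this interaction, and larger than at 24 h by 1.11 ± 0.22 (adjusted p = 0.00982), where 2.56% did. The first passed in all 35 alternatives, and the second in 33 of 35, with a highest adjusted p of 0.19. No gene of the 10 passed the difference of effects between 24 and 4 h, where 0.00796% of genes did (1 gene, and 379 at an unadjusted p under 0.05).

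Lta4h was at 15.0, 18.5, 19.7 and 19.0 CPM in AC hearts 1, 2, 4 and 5 at 48 h, against 10.4, 12.8, 8.99 and 14.5 CPM in Luc hearts 1 to 4. The groups did not overlap, but AC heart 1 and Luc heart 4 were close together. The AC hearts lay just under the sham hearts at 21.9 and 20.0 CPM. The log2 difference was 0.60 ± 0.15 (adjusted p = 0.00941), and it did not pass without Luc heart 3, the lowest (0.49, adjusted p = 0.051). The difference of the AC effect between 48 and 4 h was 0.74 ± 0.21 (adjusted p = 0.0506).

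The other genes did not pass at 48 h. Ptgis was at 23.9, 25.8, 26.7 and 24.6 CPM in AC hearts, all above the highest Luc heart at 20.5 CPM, with a log2 difference of 0.49 ± 0.19 (adjusted p = 0.082), which passed with equal totals (0.56, adjusted p = 0.0168). Ptgds was at 153, 118, 61.2 and 149 CPM in AC hearts, all below the lowest Luc heart at 162 CPM (-0.87 ± 0.41, adjusted p = 0.151). Alox5 was at 4.79, 5.78, 4.53 and 5.85 CPM in AC hearts, all below the lowest Luc heart at 6.16 CPM. Alox5ap was at 27.8, 30.4, 29.3 and 30.5 CPM in AC hearts, within the range of the Luc hearts (interval -0.21 to 0.66), and Ptgs2 was at 6.56, 7.76, 10.7 and 9.11 CPM, also within it (interval -0.80 to 1.26).

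Cell markers differed between these AC and Luc hearts too. The sum of 10 monocyte and macrophage genes was 482 to 666 CPM in AC and 261 to 371 CPM in Luc hearts at 48 h, and 6 of its 10 genes passed upward. The sum of 6 fibroblast genes was 1335 to 2092 CPM against 755 to 1170 CPM, with 4 passing upward. The sum of 6 ventricular cardiomyocyte genes was 16145 to 19793 CPM against 22521 to 34377 CPM, with Myh6 and Tnnt2 passing downward. Of 9 neutrophil genes tested, Retnlg and Lcn2 passed downward and none upward. The part of these markers in the Pla2g4a and Lta4h differences was not tested.

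**Figure D4:**
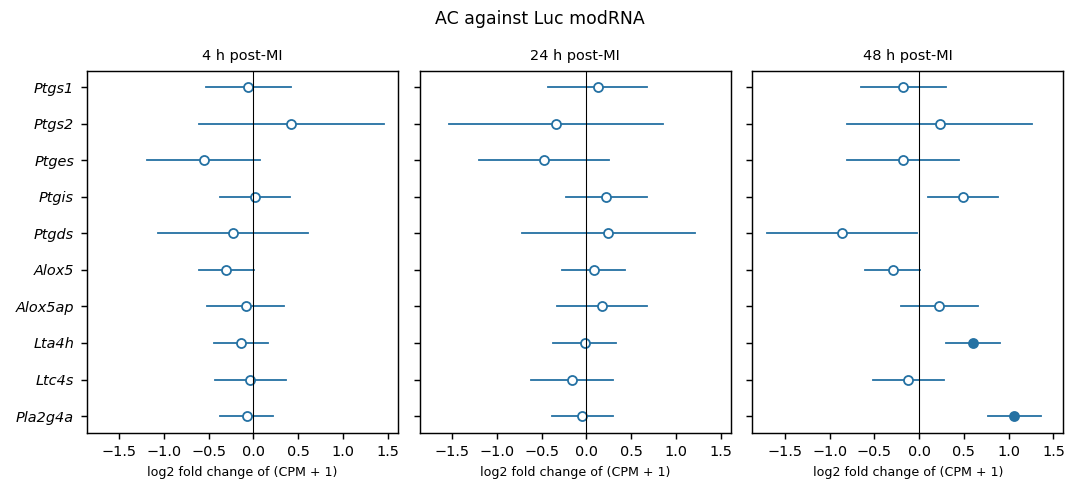
Log2 fold changes of (CPM + 1) in AC against Luc hearts at 4, 24 and 48 h post-MI. Circles are the estimates, filled where the adjusted p is under 0.05, and lines are 95% confidence intervals from limma. No gene is filled at 4 or 24 h, and at 48 h Pla2g4a (1.06) and Lta4h (0.60) are filled.

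**Figure D5:**
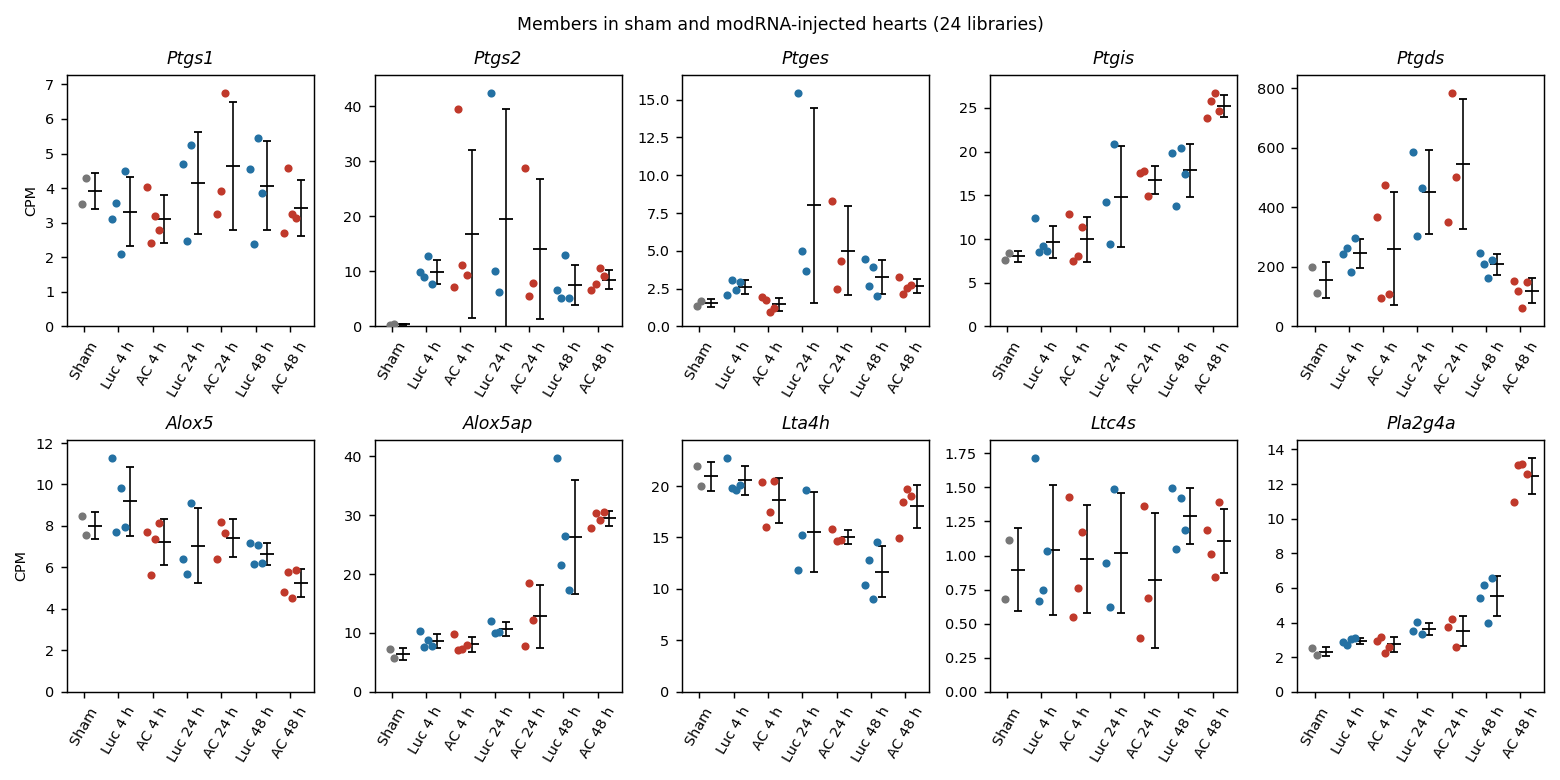
CPM of the 10 genes in the 24 libraries of the second table, with a separate vertical axis for each gene. Points are libraries, gray for sham, blue for Luc and red for AC, and black bars are the mean and SD. Ptgs2 is high in AC heart 2 at 4 h (39.6 CPM) and in Luc heart A at 24 h (42.4 CPM), and the 4 AC hearts at 48 h stand above all others for Pla2g4a at 11 to 13.2 CPM.

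The rest of the eicosanoid pathway was described from lists of genes for release, synthesis, breakdown and sensing. At 4 h post-MI, none of the 36 other genes tested in uninjected hearts passed, where 2.37% of all genes did. By 24 h, genes around the synthases had moved in both directions, at shares to be read against the 66% of all genes that passed.

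Of 8 tested genes for arachidonate release, 4 fell and 1 rose at 24 h in uninjected hearts. Pla2g4e, another cytosolic phospholipase A2, fell from a mean of 9.50 to 0.711 CPM (-2.61 ± 0.19, adjusted p = 8.16e-07), and the secreted phospholipase Pla2g5 fell from 21.5 to 3.79 CPM (-2.23 ± 0.20, adjusted p = 3.77e-06). Anxa1, annexin A1, which restrains phospholipase A2 and inflammation, rose from 14.9 to 59.4 CPM (1.90 ± 0.18, adjusted p = 4.62e-06). So Pla2g4a rose while Pla2g4e fell in the same libraries.

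Of 7 other prostanoid synthases, 2 rose and 5 fell. Ptges3, a cytosolic prostaglandin E synthase and cochaperone, rose 2.00-fold (0.99 ± 0.13, adjusted p = 4.16e-05). Cbr1 and Fam213b, which reduce prostaglandins, fell by 1.15 ± 0.14 (adjusted p = 2.71e-05) and 1.06 ± 0.18 (adjusted p = 0.000333).

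For transport and breakdown, 1 of 6 genes rose and 2 fell. Slco2a1, the transporter that takes up prostaglandins, rose from 1.34 to 8.77 CPM (2.05 ± 0.17, adjusted p = 1.83e-06), while the degrading enzymes Ptgr2 (-1.72 ± 0.19, adjusted p = 1.48e-05) and Hpgd (-1.12 ± 0.18, adjusted p = 0.00019) fell. Of 6 prostanoid receptors, 2 rose and 2 fell. Ptger2, a prostaglandin E2 receptor, went from 0.299 to 2.92 CPM (1.5 ± 0.29, adjusted p = 0.000739), and Ptgfr, the prostaglandin F receptor, from 5.36 to 0.835 CPM (-1.79 ± 0.14, adjusted p = 1.66e-06).

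On the leukotriene side, 3 of 7 other enzymes rose and 1 fell, and both receptors tested rose. Ltb4r1, the leukotriene B4 receptor of neutrophils, went from a mean of 0.0929 CPM in sham to 13.6 CPM (3.64 ± 0.27, adjusted p = 1.06e-06), and Cyp4f18, which inactivates leukotriene B4, from 0.0714 to 17.4 CPM (3.90 ± 0.37, adjusted p = 5.11e-06). Cysltr1, a receptor for cysteinyl leukotrienes, rose 2.48-fold (0.96 ± 0.18, adjusted p = 0.000727). A gene with a mean under 1 CPM in sham could be tested only where other groups were higher. This applies to Ltb4r1, Cyp4f18 and Ptger2, so the direction of their calls was in part set by the filter. All 8 neutrophil markers tested rose in the same hearts, and their part in these changes was not tested.

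In Luc hearts the same lists gave fewer calls. At 24 h, 2 of 8 release genes rose and 2 fell, 1 of 7 synthases fell, 1 of 6 transport and breakdown genes rose, 3 of 4 receptors rose and 1 fell, and 2 of 7 leukotriene enzymes rose, where 34.1% of all genes passed. Anxa1 rose (1.32 ± 0.24, adjusted p = 0.000304), Pla2g4e fell (-1.74 ± 0.35, adjusted p = 0.000685), Slco2a1 rose (1.42 ± 0.34, adjusted p = 0.00298) and Ptgfr fell (-1.68 ± 0.37, adjusted p = 0.00137). At 48 h, 1 release gene rose and 3 fell, 2 synthases fell, 1 transport and breakdown gene rose and 2 fell, 1 receptor rose and 1 fell, and 2 leukotriene enzymes and both leukotriene receptors rose, where 30.1% of all genes passed. Ltb4r1 was then at 3.62 CPM against 0.175 CPM in sham (1.90 ± 0.31, adjusted p = 9.85e-05) and Cysltr1 at 3.68 against 0.824 CPM (1.37 ± 0.20, adjusted p = 4.61e-05). Both were under 1 CPM in sham, so the filter in part set the direction of these calls too. At 4 h in Luc hearts, no gene of these lists passed, where 1.55% of all genes did.

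With AC, none of these genes passed at 4 or 24 h, where 0.00796% of all genes did at each time. At 48 h, 7 of the 34 genes tested were higher and 2 lower than with Luc, where 15.3% of all genes passed. Hpgds, the hematopoietic prostaglandin D synthase, was at 3.53 CPM with AC and 1.56 CPM with Luc (0.84 ± 0.15, adjusted p = 0.000804), and Tbxas1, thromboxane synthase, at 5.54 and 2.53 CPM (0.92 ± 0.18, adjusted p = 0.00189). Ptgr1 (0.77 ± 0.20, adjusted p = 0.0153), Hpgd (0.61 ± 0.19, adjusted p = 0.0346) and Abcc4 (0.52 ± 0.16, adjusted p = 0.0322), which degrade or export prostaglandins, were higher, as were the receptors Ptger4 (0.67 ± 0.18, adjusted p = 0.0146) and Cysltr1 (0.60 ± 0.17, adjusted p = 0.0195). Pla2g12a, a secreted phospholipase A2 (-1.14 ± 0.27, adjusted p = 0.00665), and Dpep1, which trims leukotriene D4 (-1.06 ± 0.24, adjusted p = 0.00504), were lower. Pla2g4a and Pla2g12a thus differed in opposite directions between AC and Luc hearts.

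The genes whose levels followed each enzyme most closely were sought among 12258 others tested in both tables, by the smaller of the Pearson correlations over the 10 and the 24 libraries on the log2(CPM + 1) scale. These are descriptions with no test, since the libraries of a group share treatment and time. Ptgs2 was most like Ccl2, a monocyte-attracting chemokine (smaller r 0.91), and Adamts4 (0.90), and Ptges was most like Il1a (0.87) and Rnf19b (0.86). Alox5ap was most like Ncf4, a subunit of the phagocyte NADPH oxidase, and Fxyd5 (both 0.97), and Pla2g4a like Slc7a7 (0.97) and Ptpn7 (0.96). Ptgis went with Limd2 and Sh3gl1 (both 0.93), and Lta4h with Ggcx and Lmod3 (both 0.92), the latter a protein of muscle thin filaments. The closest genes were less alike for Ptgs1 (Gatsl3, 0.60), Ptgds (Hand2, 0.71) and Alox5 (Dgat1, 0.69). Ltc4s, not tested in the first table, was left out.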

How the data were processed

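LV tissue was profiled by poly(A) RNA sequencing (a stranded TruSeq kit, per the labels) in 34 libraries, 10 in the first table and 24 in the second. For the first table the authors aligned reads to mm10 with STAR, quantified RefSeq genes with an expectation-maximization method in Partek and normalized them by TMM, and deposited CPM. For the second, the method is not given in the sources used here beyond the build. Its deposited values were read as CPM with 1 added, because the smallest value is 1, and the 1 was subtracted. Groups came from the labels. Linear models were fitted to each table separately on log2(CPM + 1), with all its groups in 1 model and no covariates (R 4.3.3; limma 3.58.1, moderated with a mean-variance trend), over the 12487 and 12555 genes that averaged 1 CPM or more; the steps were tested on simulated data. A count test could not be used, since 82.1% of values under 1 CPM in the first table were within 0.01 of a whole multiple of the library's smallest value. In the second table the smallest values are fractions of a read. Other computations used Python 3.11.15, numpy 2.4.6, pandas 2.3.3 and matplotlib 3.10.9.

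All 10 genes were plotted in every group, and their levels are printed for some of the groups. Of the other eicosanoid lists, at most 3 genes per list and comparison were named, those with the smallest adjusted p past the threshold. The 2 genes most alike were sought for each of the described genes tested in both tables, which leaves out Ltc4s. The genes, lists and rules were chosen with earlier results of these data known. The alternatives were pseudocounts of 0.1 and 5, no filter or a mean of at least 5 CPM, no mean-variance trend, array weights, rescaling by median ratios or to equal totals, no subtraction of 1, the compared groups alone, a replicate block and leaving out each library. Libraries with the same letter or number deviated together in some pairs and not in others, and the labels tie them to no shared animal or batch, so they were not treated as pairs. No column of per-sample values was left out.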

Additional observations from a re-analysis of the deposited data

Results flagged for a closer look

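In the 5 groups of 4 libraries, 50 sets of 4 values were searched for an outlying library by Dixon's criterion, which chance meets in about 1 of 20 groups, and 3 met it. Ptgs2 in AC heart 2 at 4 h was at 39.6 CPM, and the other AC hearts were at 7.09 to 11.2 CPM. In Luc heart 1 at 4 h, Ptgis was at 12.4 CPM (others 8.56 to 9.17) and Lta4h at 22.7 CPM (others 19.6 to 20.1).

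Effects against sham differed between 24 and 4 h post-MI in uninjected hearts for 7 genes, by limma's test of the difference: Ptgs2 (1.48), Ptges (1.72), Ptgis (1.44), Alox5 (0.66), Alox5ap (2.76), Pla2g4a (1.32) and Lta4h (-0.43), all as log2 differences. In Luc hearts the effect on Ptges was larger at 24 than at 4 h by 1.10 and smaller at 48 than at 24 h by 0.89 (a difference of -0.89), and those on Alox5ap and Pla2g4a were larger at 48 than at 24 h by 1.16 and 0.48. The difference between AC and Luc in Pla2g4a was larger at 48 h than at 4 h by 1.14 and than at 24 h by 1.11. Within a table the sham group is shared, so a difference of effects against sham is the difference between the times. All of these calls were reported above and the limits given there hold, such as the loss of both Ptges calls without Luc heart A.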

How the results depend on the processing

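Of 137 results (1 gene in 1 comparison), 33 passed the threshold, 21 of them in every alternative, and 12 were lost in at least 1. A further 18 passed in at least 1 alternative only, and no called direction reversed. Counts of genes passing (of the 10) moved as follows. Array weights gave 2 instead of 1 for MI at 4 h, 2 instead of 5 for Luc against sham at 24 h, 3 instead of 1 for Luc at 24 against 4 h, 4 instead of 2 for AC against Luc at 48 h (adding Ptgis and Alox5ap) and 2 instead of 1 for the AC effect at 48 against 4 h. Luc against sham at 4 h went from 1 to 0 with a pseudocount of 5 or no subtraction of 1, and the former also ended the call of Ptgs2 in Luc hearts at 48 h (1.18, adjusted p = 0.0723). A minimum of 5 CPM, which leaves Ptges, Ptgs1 and Ltc4s untested, gave 3 at 24 h for Luc against sham and 0 for Luc at 24 against 4 h. Rescaling by median ratios or to equal totals gave 3 for the latter, where Alox5 and Lta4h passed downward. The AC effect at 48 against 4 h gave 2, with Lta4h, under a pseudocount of 5, equal totals, no subtraction and the compared groups alone. The compared groups alone gave 3 for Luc against sham at 24 h, 2 for Luc at 24 against 4 h and 0 for the AC effect at 48 against 24 h. Leaving out 1 library gave 0 to 1 (Luc against sham, 4 h), 1 to 6 (24 h), 0 to 3 (Luc, 24 against 4 h), 1 to 2 (AC against Luc, 48 h) and 1 to 2 (AC effect, 48 against 4 h). The causes were not tested.

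The replicate block could be fitted for the first table, Luc against sham at 4 h and AC against Luc. Same-lettered or same-numbered libraries share only a name (correlations of deviations from -0.06 to 0.34 and from -0.21 to 0.43). With the block, MI at 24 h called 8 genes instead of 6, with Ptgds (-0.99, adjusted p = 0.0197) and Alox5 (0.63, adjusted p = 0.0136), AC against Luc at 48 h called 1 of the 10 genes instead of 2 (Lta4h at 0.47, adjusted p = 0.206) and 172 instead of 1926 of all genes, and the AC effect at 48 against 24 h called 0 instead of 1 and 0 instead of 322.

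Counts over all genes ranged under the alternatives from 105 to 2500 for MI at 4 h (296), 52 to 580 for Luc at 4 h (194), 1684 to 4700 for Luc at 24 h (4275), 1504 to 4181 for Luc at 48 h (3774) and 172 to 3178 for AC against Luc at 48 h (1926). Scaling moved the split of higher and lower genes most for Luc at 48 against 24 h, from 1170 and 4088 to 3255 and 945 with equal totals. In the first table depth limits low values such as Ltc4s and sham Ptgs2, and in the second it is unknown.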
